A study of Danio rerio with 24 samples.

Results

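The Pax genes encode transcription factors that bind DNA through a paired domain. The expression of 10 of them, pax2a, pax2b, pax3a, pax3b, pax5, pax6a, pax6b, pax7a, pax7b and pax8, was followed in zebrafish rb1 brain tumors and in normal adult brain. Members were taken by gene symbol, and all 10 had a row of their own among the 32266 genes of the count table.

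Pax proteins pattern the neural tube and later help to keep neurons and progenitors of particular regions in their identity. The Pax2, Pax5 and Pax8 subgroup is known for setting up the boundary between midbrain and hindbrain and for inhibitory interneurons of the hindbrain and spinal cord. The Pax3 and Pax7 subgroup marks the dorsal neural tube, the roof of the midbrain, the neural crest and its pigment cells. The Pax6 subgroup acts in the eye, the forebrain and the granule cells of the cerebellum. In zebrafish several ancestral genes are present as an a and a b copy.

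Tumors came from 10 WIK fish with somatic TALEN targeting of rb1, in which cells with and without rb1 lesions are mixed, aged 6.5 to 10 months by the labels. Controls were 2 pools of 3 wild-type WIK brains of the same labelled age, and the labels name their tissue as midbrain and hindbrain. Of each brain, 1 side was used for RNA, from the diencephalon to the rear of the cerebellum, so a tumor sample can also hold normal brain. Each of the 12 RNA samples gave libraries a and b, whose counts were summed here.

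Summed libraries held 18.5 to 24.95 M (mega) counts in tumors and 19.8 and 21.04 M in the pools. Levels are given as CPM, the counts of a gene per 1 M counts of the sample after TMM scaling in edgeR, and 3 counts, taken as the floor, amount to 0.120 to 0.162 CPM. For libraries a and b of 1 tumor the chi-square over its degrees of freedom was 1.04 to 1.60, where sampling noise alone gives a value near 1. Among the control libraries, those that share a letter and come from different pools gave 1.00 to 1.01, and those that share a pool number gave 3.25 to 3.42. The 2 control values below are therefore given singly, and their closeness is no measure of the spread between pools. The pool numbers of the control libraries may be crossed. In that case each summed pool mixes reads of both pools. The 2 sums would then not be separate replicates, and leaving 1 out would remove neither pool. With the control libraries summed by letter, the same number of Pax genes passed the test in each direction. The targeted gene rb1 had 18.8, 29.3 and 100.9 CPM (lowest, median and highest tumor) and 13.1 and 14.6 CPM in the pools, so its RNA does not mark the targeted samples by a lower level (log2 fold change 1.48, edgeR adjusted p = 0.0481).

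The first question was which Pax genes differ between tumor and normal brain. Calls rest on edgeR's quasi-likelihood test over 20957 genes and need an adjusted p no higher than 0.01 together with a 1.5-fold change. Of the 10 Pax genes, 8 were lower in tumors, against 24.9% of all tested genes called lower. None was called higher by edgeR, against 22.8% of all tested genes, while 1 (pax3a) had an unadjusted p under 0.05 in that direction and was called by DESeq2. The median log2 fold change was -2.77 over the 10 Pax genes and 0.09 over all tested genes. In 9 Pax genes all 10 tumors lay below both pools, which held for 32.7% of all tested genes. In the other one, pax3a, all 10 tumors lay above both pools, which held for 31.6% of all tested genes. Because whole pieces of tissue were measured, fewer cells that express a gene and less RNA per cell cannot be told apart in any of these values. Of the 10 genes, 6 had at least 10 counts in every tumor. The other 4 (pax2b, pax5, pax8 and pax3b) reached 10 counts in at most 2 tumors each and passed the filter on low counts largely through the control pools.

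**Figure D1:**
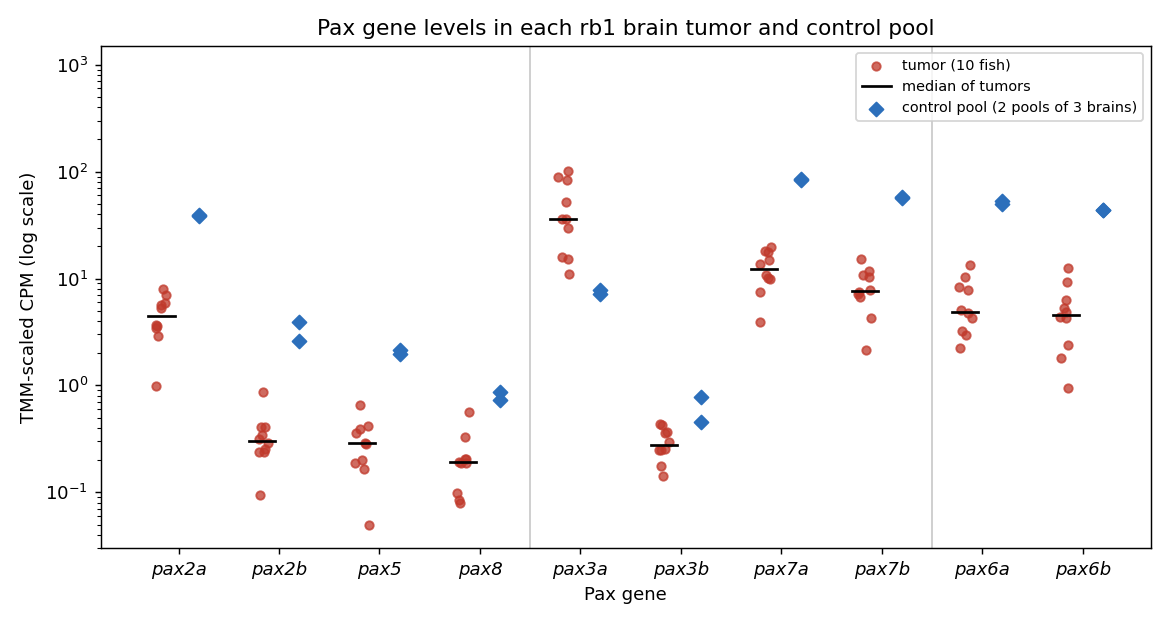
Level of each Pax gene in each sample, as TMM-scaled CPM on a log axis; red points are the 10 tumors, black bars their median and blue diamonds the 2 control pools. Tumor points lie below both control points for 9 genes, and for pax3a all tumors, from 11.1 to 102.4 CPM, lie above the pools at 7.87 and 7.16 CPM.

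**Figure D2:**
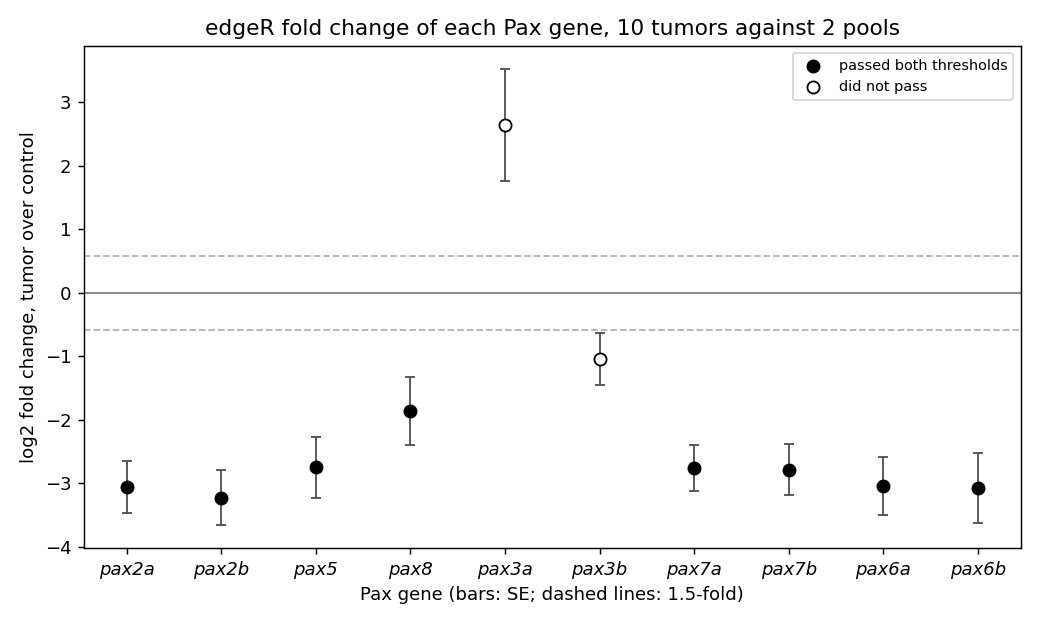
log2 fold change of each Pax gene in 10 tumors over 2 control pools from edgeR, with bars of 1 SE, derived from the test's F statistic, and dashed lines at 1.5-fold. Filled points passed both thresholds: they run from -1.86 (pax8) to -3.22 (pax2b), while pax3a at 2.65 and pax3b at -1.04 did not pass.

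In the Pax2, Pax5 and Pax8 subgroup all 4 genes were lower in tumors. The most abundant of them was pax2a (ENSDARG00000028148), which in zebrafish is required to form the midbrain-hindbrain boundary. It had 0.997, 4.497 and 7.91 CPM in the lowest, median and highest tumor, and 38.5 and 39.1 CPM in the pools. No tumor came near the pools: the highest, tumor 4, was still far below them. The lowest was tumor 1, and the next was tumor 2 at 2.93 CPM. The change was 8.31-fold lower (log2 fold change -3.05, SE 0.41, edgeR adjusted p = 3.95e-05).

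Its copy pax2b (ENSDARG00000032578), which is active in the same boundary region, was a low-abundance gene. Tumors held 2 to 20 counts, or 0.0949, 0.304 and 0.875 CPM, and the pools held 82 and 58 counts, or 3.96 and 2.63 CPM. It was 9.33-fold lower in tumors (log2 fold change -3.22, SE 0.44, edgeR adjusted p = 4.21e-05). Tumor 4 was again the highest and tumor 1 the lowest.

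pax5 (ENSDARG00000037383) acts with pax2a in the midbrain and hindbrain, and in mammals it is also the factor that commits lymphocytes to the B cell lineage. Its tumor values were 0.0496, 0.287 and 0.655 CPM, from 1 to 16 counts, and the pools had 1.98 and 2.13 CPM. The fall was 6.70-fold (log2 fold change -2.74, SE 0.48, edgeR adjusted p = 0.000279). Of 8 tested B cell markers 3 were higher (blk, blnk and btk) and none lower (none was higher without control pool 1, and 1 without control pool 2), the summed level of the list was 51.4 to 157.3 CPM in tumors and 63.6 and 64.4 CPM in the pools, and the receptor subunits cd79a and cd79b had a median of 0.0893 and 0.0678 CPM in tumors. In the pools cd79a had 0 and 0.0906 CPM and cd79b had 0 counts, and 5 and 8 tumors lay above both pools. Both genes rest on few reads, 46 and 23 counts over all tumors. ebf1a, an early B cell factor that other tissues also express, had 37.4, 55.9 and 113.4 CPM in tumors and 44.9 and 43.8 CPM in the pools (log2 fold change 0.47, edgeR adjusted p = 0.258). The copy ebf1b had 2.11, 10.6 and 30.3 CPM in tumors and 14.9 and 15.9 CPM in the pools, with 9 of 10 tumors below both pools (log2 fold change -0.54, edgeR adjusted p = 0.496). The part of B cells in the pax5 values was not tested.

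pax8 (ENSDARG00000015879) is known for the thyroid, the kidney and the inner ear as well as the hindbrain. It was the least abundant member in the tumors, with 0.0795, 0.191 and 0.568 CPM, from 2 to 13 counts, and it had 0.869 and 0.725 CPM in the pools. All tumors were below both pools, with tumor 4 highest. The fold change of -1.86 on the log2 scale (SE 0.53) passed the test with an edgeR adjusted p of 0.00825. That call was lost when any 1 of 8 tumors or either pool was left out, with adjusted p between 0.00105 and 0.0807 over the 12 such fits, and the direction stayed. The thyroid gene tg, which codes for thyroglobulin, had 0.435 and 0.634 CPM in the pools and 0.203 to 0.568 CPM in tumors. It was not called (log2 fold change -0.44, edgeR adjusted p = 0.3625). Of 10 tested genes of the kidney and thyroid list 4 were lower and 1, cdh17 with 0 counts in the pools, was higher. Among the lower were slc5a5 (-2.558, edgeR adjusted p = 0.000741) and tshr (-2.104, edgeR adjusted p = 0.000375). slc5a5 had 1.971 CPM in the median tumor and 12.17 and 11.55 CPM in the pools. The summed level of the kidney and thyroid list was 27.1 and 24.9 CPM in the pools and 7.501, 9.26 and 17.8 CPM in tumors. Whether such cells have a part in the pax8 values was not tested.

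In the Pax3 and Pax7 subgroup the 4 genes did not move together. pax3a (ENSDARG00000010192), a dorsal neural tube and neural crest factor, was the one Pax gene with higher values in every tumor. In order from tumor 1 to tumor 10 it had 102.4, 36.3, 52.5, 15.4, 15.9, 83.0, 11.1, 89.2, 29.8 and 36.0 CPM, and the pools had 7.87 and 7.16 CPM. Tumors 1, 6 and 8 carried the highest values and tumors 4, 5 and 7 the lowest, with a 9.27-fold range from the lowest to the highest. These are well-counted values, from 278 to 2158 reads per tumor and 163 and 158 per pool. The log2 fold change was 2.65 (SE 0.88), or 6.27-fold, and the edgeR adjusted p of 0.0189 missed the threshold. Without tumor 7, which had the lowest level, the adjusted p was 0.00981 and the gene passed. Without control pool 1 or control pool 2 the log2 fold change was 2.72 or 2.58. The threshold was missed in each of the 9 fits that left out another tumor. DESeq2 gave a log2 fold change of 2.62 and an adjusted p of 0.000521, which also passed.

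The copy pax3b (ENSDARG00000028348) was barely detected in either tissue. Tumors held 3 to 9 counts, or 0.142, 0.275 and 0.434 CPM, and the pools held 16 and 10 counts, or 0.773 and 0.453 CPM. All tumors lay below both pools, the highest close to the lower pool. The log2 fold change of -1.04 (SE 0.41) had an edgeR adjusted p of 0.0406 and was not called.

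pax7a (ENSDARG00000100398) and pax7b (ENSDARG00000070818) mark the roof of the midbrain in the brain, and muscle stem cells and yellow pigment cells outside it. pax7a had the highest CPM of all members in the pools, 86.1 and 83.9, and 3.89, 12.2 and 19.5 CPM in tumors. It was 6.75-fold lower (log2 fold change -2.75, SE 0.36, edgeR adjusted p = 3.16e-05). pax7b had 58.4 and 56.8 CPM in the pools and 2.14, 7.68 and 15.1 CPM in tumors, 6.88-fold lower (log2 fold change -2.78, SE 0.40, edgeR adjusted p = 6.86e-05). In both copies tumor 1 was lowest and tumor 9 highest, and no tumor reached the pools. Muscle genes were nearly absent from all samples: the summed level of 15 muscle genes was 6.51 to 11.1 CPM in tumors and 12.03 and 11.6 CPM in the pools.

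In the Pax6 subgroup both copies were lower. pax6a (ENSDARG00000103379) had 2.23, 4.91 and 13.5 CPM in tumors and 50.2 and 52.7 CPM in the pools, 8.25-fold lower (log2 fold change -3.04, SE 0.45, edgeR adjusted p = 8.07e-05). pax6b (ENSDARG00000045936) had 0.949, 4.59 and 12.7 CPM in tumors and 43.9 and 43.8 CPM in the pools, 8.39-fold lower (log2 fold change -3.07, SE 0.55, edgeR adjusted p = 0.000356). The order of the tumors was alike in the copies: tumor 1 was the lowest and tumor 4 the highest of both. Photoreceptor genes, which would mark eye tissue, had a summed level of 8.45 and 8.83 CPM in the pools and of 3.62, 4.33 and 134.7 CPM in tumors, where tumor 10 alone was high.

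Per length, the members could be compared with each other. FPKM (fragments per kilobase of exon and per 1 M counts) are the deposited values, averaged over libraries a and b. In the pools the order was pax6a (15.1 and 15.9 FPKM), pax7b (12.7 and 12.3), pax2a (9.75 and 9.90), pax7a (9.69 and 9.45), pax6b (7.45 and 7.43) and pax3a (1.84 and 1.68). Then came pax2b and pax5 at about the same FPKM, with ranges that overlapped, and last pax8 and pax3b, which overlapped as well. In the tumors pax3a came first with 10.3 ± 6.97 FPKM (SD, n = 10), followed by pax6a with 1.80 ± 1.11, pax7b with 1.75 ± 0.84, pax7a with 1.36 ± 0.59, pax2a with 1.13 ± 0.54 and pax6b with 0.852 ± 0.601 FPKM. Ranges of neighbours in that order overlapped throughout, and pax3a was above pax6a in 9 of 10 tumors. pax5, pax3b, pax2b and pax8 had means between 0.0904 and 0.175 FPKM.

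The makeup of the family was thus different in the 2 tissues. The summed FPKM of the 10 genes was 60.1 and 59.6 in the pools and 9.14, 17.7 and 25.6 in the lowest, median and highest tumor. pax3a made up 3.07% and 2.82% of that sum in the pools. In tumors 1 to 10 it made up 91.2, 62.9, 51.7, 20.8, 38.8, 70.9, 25.7, 80.7, 38.8 and 52.6% of it. In 6 of the 10 tumors pax3a therefore carried more of the summed FPKM than the other 9 genes together. Without pax3a, the other 9 genes summed to 58.2 and 57.9 FPKM in the pools and to 2.08, 7.20 and 13.7 FPKM in tumors. By subgroup, the Pax6 genes had 22.5 and 23.3 FPKM in the pools and 0.746, 2.13 and 6.18 in tumors, and the Pax2, Pax5 and Pax8 genes had 12.9 and 12.6 FPKM in the pools and 0.446, 1.41 and 2.83 in tumors. The Pax3 and Pax7 genes stayed closest, with 24.6 and 23.7 FPKM in the pools and 5.90, 11.8 and 22.4 in tumors. In the pools most of that sum came from pax7a and pax7b. In every tumor pax3a was the highest gene of this subgroup, although in tumors 4 and 7 pax7a and pax7b together exceeded it.

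**Figure D3:**
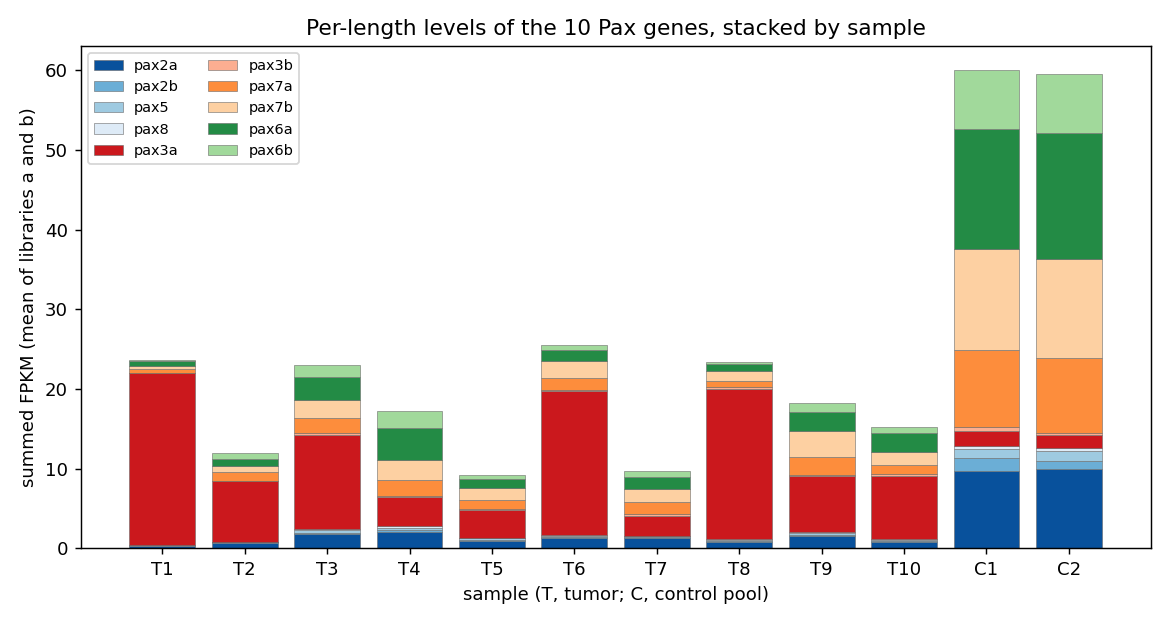
Deposited FPKM of the 10 Pax genes, stacked by sample (T1 to T10, tumors; C1 and C2, control pools). The stack reaches 60.1 and 59.6 FPKM in the pools and at most 25.6 FPKM in a tumor, and the red pax3a block takes from 20.8% to 91.2% of a tumor's stack.

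The second question was whether the a and b copies changed unequally. The log2 ratio of the counts of a over b within a sample needs no scaling between libraries and was compared by a two-sided exact permutation test, which with 10 tumors and 2 pools cannot go below p = 0.0152 in 66 arrangements. For pax2 the ratio differed by 0.07 between tumors and pools (exact p = 0.909), for pax6 by 0.14 (exact p = 0.848) and for pax7 by 0.06 (exact p = 0.803). For these pairs the tumor ratios lay on both sides of the pools. For pax3 the ratio was 4.87, 6.90 and 9.27 in the lowest, median and highest tumor and 3.31 and 3.92 in the pools. The difference was 3.30 with all 10 tumors above both pools, and p was 0.0152, the smallest the exact test allows (0.0606 after Benjamini-Hochberg adjustment over the 4 pairs). A pair that differs alone cannot go below 0.0606 after this adjustment, so the threshold of 0.05 was out of its reach. The b copy in this ratio, pax3b, held only 3 to 9 counts per tumor and 16 and 10 in the pools. The study's methods describe counts from uniquely mapped reads only, without limiting this to its larval libraries, and copies that share sequence lose reads to that extent.

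**Figure D4:**
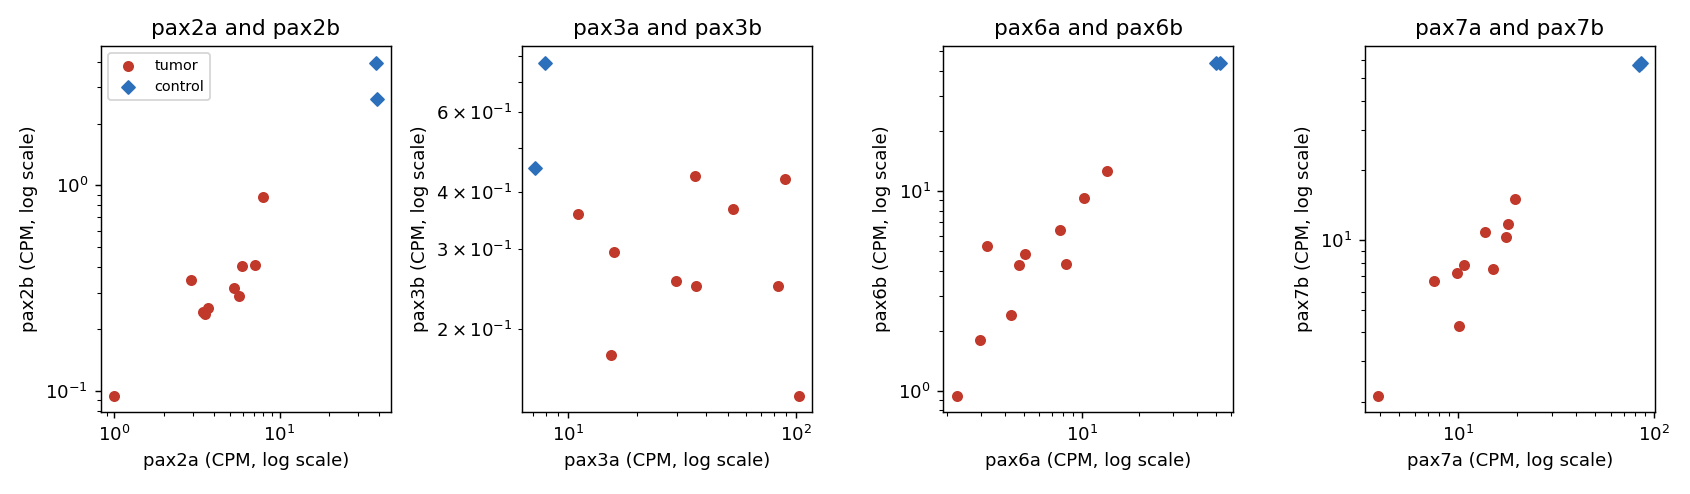
Level of the b copy against that of the a copy in each sample, both as CPM on log axes, for the 4 duplicated Pax genes; red points are tumors and blue diamonds control pools. Tumor points of pax2, pax6 and pax7 run along a rising line (r = 0.87, 0.869 and 0.91), and those of pax3 do not (r = -0.0843).

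The third question was how the members vary from tumor to tumor. Over 10 tumors, log2 CPM of 14 pairs of genes were correlated, 9 of them planned and 5 added after the values were seen, and adjusted p-values cover all 14. The copies varied together for pax7 (Pearson r = 0.91, permutation p = 0.00071, adjusted 0.00331; Spearman rho = 0.903, permutation p = 0.00089, adjusted 0.00623), for pax2 (r = 0.87, permutation p = 0.00142, adjusted 0.00398; rho = 0.782, permutation p = 0.0108, adjusted 0.0217) and for pax6 (r = 0.869, permutation p = 0.00097, adjusted 0.00339; rho = 0.83, permutation p = 0.00451, adjusted 0.0126). Without the 2 tumors farthest from the median of the a copy, r was 0.697, 0.615 and 0.718. Such coefficients were common in these tumors: among 12664 genes ranked by r, pax7b stood at place 519 in likeness to pax7a and pax6b at place 357 in likeness to pax6a, so many other genes followed pax7a and pax6a more closely than their copies did. For pax3a and pax3b no relation was detected (r = -0.0843, permutation p = 0.814, adjusted 0.814; rho = -0.103, permutation p = 0.784, adjusted 0.784; r = 0.507 without the 2 farthest tumors), where pax3b rests on 3 to 9 counts per tumor.

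Abundant members of different subgroups also varied together, again with many genes at least as close: in likeness to pax7a, pax2a was at place 143 and pax6a at place 1231 of 12664. The pair pax2a and pax7a gave r = 0.952 (permutation p = 0.00027, adjusted 0.00189; rho = 0.855, permutation p = 0.00286, adjusted 0.01; r = 0.863 without the 2 farthest tumors). For pax6a and pax7a it was r = 0.824 (permutation p = 0.0024, adjusted 0.0056; rho = 0.855, permutation p = 0.00273, adjusted 0.01; r = 0.738 without the 2 farthest tumors). For pax2a and pax6a it was r = 0.794 (permutation p = 0.00309, adjusted 0.00618; rho = 0.782, permutation p = 0.0102, adjusted 0.0217; r = 0.641 without the 2 farthest tumors). In each of these, tumors 1 and 4 were the 2 farthest. Tumor 1 had the lowest level of 7 of the 10 members and the highest of pax3a, and tumor 4 had the highest level of 5 members.

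Pairs of pax3a with other members had negative coefficients that did not pass the test. These were r = -0.544 with pax7a (permutation p = 0.0974, adjusted 0.171; rho = -0.576, permutation p = 0.0874, adjusted 0.111), r = -0.469 with pax6a (permutation p = 0.17, adjusted 0.246; rho = -0.576, permutation p = 0.0866, adjusted 0.111) and r = -0.465 with pax2a (permutation p = 0.176, adjusted 0.246; rho = -0.455, permutation p = 0.192, adjusted 0.224). Without tumors 1 and 7 they were -0.29, -0.429 and -0.134. The low-count pairs pax2a and pax5 (r = 0.434, permutation p = 0.204, adjusted 0.26; rho = 0.6, permutation p = 0.0745, adjusted 0.111), pax2a and pax8 (r = 0.331, permutation p = 0.343, adjusted 0.4; rho = 0.624, permutation p = 0.0612, adjusted 0.107) and pax5 and pax8 (r = 0.296, permutation p = 0.402, adjusted 0.433; rho = 0.236, permutation p = 0.513, adjusted 0.552) did not pass either. Without the 2 farthest tumors these gave 0.528, 0.419 and 0.0629.

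pax6a followed neurod1, a transcription factor of differentiating neurons that is abundant in cerebellar granule cells, with r = 0.945 (permutation p = 7e-05, adjusted 0.00098; rho = 0.976, permutation p = 2e-05, adjusted 0.00028; r = 0.884 without tumors 1 and 4). neurod1 itself had 17.04, 54.2 and 168.7 CPM in tumors and 730.8 and 728.5 CPM in the pools. Other genes, such as gabra6b (r = 0.977), came closer to pax6a, and the place of neurod1 among the 12664 ranked genes was not read out.

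For the 4 members of highest mean FPKM, the genes of most similar pattern over the 10 tumors were read out among 12664 genes whose mean reached 10 CPM in tumors or pools, as a description. Closest to pax6a were gabra6b (r = 0.977), a GABA receptor subunit of cerebellar granule cells, the channel gene ano2 (0.976) and ptprfb (0.973), a receptor phosphatase. Closest to pax7b were ahdc1 (0.983), the LIM-only gene lmo1 (0.982) and the LIM homeobox gene lhx9 (0.978). Closest to pax7a were camk4, a neuronal calcium-dependent kinase, gal3st3 and dnm3a (each 0.983). All of these were lower in tumors, with log2 fold changes from -3.50 (gabra6b) to -1.98 (dnm3a). Of them gabra6b, ano2, gal3st3 and dnm3a reached the mean of 10 CPM only through the pools. Their means were 1.92, 4.33, 3.84 and 9.45 CPM in tumors and 21.9, 34.2, 28.3 and 37.4 CPM in the pools. Closest to pax3a were palb2 (r = 0.921), a partner of BRCA2 in DNA repair, prps1b (0.917), an enzyme of nucleotide synthesis, and seta (0.900), a histone chaperone. These 3 genes were called higher in tumors, with log2 fold changes of 4.45, 1.57 and 2.15.

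The tumors also differed from the pools in the cell types their markers show. Of 16 neuron markers 15 were lower and 1 was higher, elavl3, an RNA-binding protein gene that begins in new neurons (log2 fold change 1.13), and the list's median was -2.39. The list's summed level was 2160, 3433 and 4598 CPM in tumors and 12492 and 12442 CPM in the pools. Of 13 granule cell markers 12 were lower (median -3.002), with summed levels of 132.1, 324 and 701.2 CPM in tumors and 3031 and 3053 CPM in the pools. All 10 Purkinje cell markers tested were lower (median -2.81), with summed levels of 172.4, 325.9 and 520.6 CPM in tumors and 2446 and 2443 CPM in the pools. Tumor 1, the lowest in 7 Pax genes, also had the lowest sum of neuron and of granule cell markers. It was likewise the lowest for Purkinje cell and radial glia markers and for the boundary and the kidney and thyroid lists. Tumor 1 was the highest for microglia markers (5524 CPM) and endothelial markers (245 CPM). For oligodendrocyte precursor markers (4463 CPM) it ranked 8 of 10 from the lowest. Tumor 4 had the highest sum of granule cell and of Purkinje cell markers. For neuron markers tumor 9 was highest with 4598 CPM, and tumor 4 had 3971 CPM. The part that the number of neurons has in the lower Pax values was not tested.

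Other lists moved with the group as well. Of 9 markers of oligodendrocyte precursors 6 were higher, among them gpr17, sox10 and erbb3a, and 3 were lower (olig1, pdgfra and cspg4), with summed levels of 2918 to 4839 CPM in tumors and 180.3 and 170.3 CPM in the pools. Of 14 microglia markers 10 were higher, with summed levels of 2711 to 5524 CPM in tumors and 829.3 and 831 CPM in the pools. Without either pool that count was 2. Of 10 radial glia markers 5 were lower and 1, sox2, was higher. Endothelial markers summed to 163.8 to 245 CPM in tumors and 161.5 and 164 CPM in the pools. The part of these cell types in the Pax values was not tested.

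Genes that act beside the Pax factors were counted from lists chosen for their roles, with earlier results of these data known. In the midbrain-hindbrain boundary list, where pax2a works together with Engrailed and Fgf8, 14 of 23 tested genes were lower and none was higher by edgeR or DESeq2, none also at an unadjusted p under 0.05, and the median log2 fold change was -2.10. Over 12 other settings 8 to 15 genes of this list were lower. The homeobox gene eng1a had at most 0.394 CPM in tumors and 3.38 and 3.17 CPM in the pools (log2 fold change -4.50, edgeR adjusted p = 8.01e-05). But eng1a held 31 counts over all 10 tumors together and passed the filter on low counts largely through the pools, as did irx7 with 47 counts. The signal gene fgf8a had 0.095, 0.431 and 1.09 CPM in tumors and 5.41 and 5.71 CPM in the pools (-3.51, edgeR adjusted p = 0.000102). eng2b had 1.14, 2.39 and 3.89 CPM in tumors and 17.2 and 20.8 CPM in the pools (-2.88, edgeR adjusted p = 5.31e-06). The copies eng1b and fgf8b were not called. eng1b had 0.902, 5.71 and 74.3 CPM in tumors and 37.7 and 36.0 CPM in the pools (-1.37, edgeR adjusted p = 0.299). Of its tumors, 9 lay below both pools and 1 above. fgf8b had 0.198, 0.668 and 1.96 CPM in tumors and 1.55 and 2.13 CPM in the pools (-1.14, edgeR adjusted p = 0.143).

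Among 22 genes of inhibitory interneurons, the cell type in which Pax2 is used as a label in mouse hindbrain, 19 were lower and none was higher by edgeR or DESeq2 or at an unadjusted p under 0.05, with a median of -2.52. gad1b and gad2 code for the enzymes that make GABA. gad2 fell by 2.91 on the log2 scale. gad1b fell by 2.99 and went from 898 and 888 CPM in the pools to 34.8, 105 and 180 CPM in tumors. ptf1a, the factor that specifies inhibitory neurons, was itself near the floor, at most 0.327 CPM in tumors and 0.821 and 0.861 CPM in the pools. With 20 counts over all tumors it passed the filter on low counts largely through the pools, as did lbx1a with 43 counts. tfap2b of this list went the other way in most tumors but was not called (log2 fold change 1.47, edgeR adjusted p = 0.229). It had 12.6, 128.8 and 249.2 CPM in tumors and 40.3 and 40.6 CPM in the pools, with 7 tumors above both pools and 3 below.

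In the list of neurogenic factors that act with Pax6 in cortex and cerebellum, 15 of 21 tested genes were lower and none higher by edgeR or DESeq2, while tbr1a was higher at an unadjusted p under 0.05, and the median was -2.39. eomesb fell by 3.83, neurod2 by 3.62 and barhl1a by 3.60 on the log2 scale. Without control pool 2, 8 genes of this list passed.

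Sine oculis homeobox, Eya and Dach genes, which work with Pax genes in the network for eye, ear and kidney, were lower in 8 of 17 tested cases and higher in none by edgeR or DESeq2, with eya3 higher at an unadjusted p under 0.05 (median -1.58). Among those not called were six3a (0.12, edgeR adjusted p = 0.933) and six6b (-1.62, edgeR adjusted p = 0.0593). six3a had 0.496, 8.45 and 39.6 CPM in tumors and 11.5 and 13.5 CPM in the pools, with 3 tumors above both pools and 6 below. The leading ones among the lower genes were six6a (-2.74), six3b (-2.55) and eya4 (-2.43). Of these six6a, with 60 counts over all 10 tumors and at most 0.428 CPM in any of them, passed the filter largely through the pools at 1.79 and 1.86 CPM, and eya4 had 112 counts over all tumors. Without either control pool, 5 of them passed.

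Crest and pigment genes, the context of pax3a and pax7a outside the brain, showed no shared direction: 2 of 17 tested genes were higher, 2 lower, and the median was 0.25. Higher were csf1ra (1.82), which microglia also use, and gch2 (1.57), an enzyme of the yellow pigment pathway. Lower were ltk (-2.08) and dct (-1.74), and all 4 calls were lost when either pool was left out. The number called higher was 1 without tumor 6 or tumor 10 and 4 without tumor 4, and DESeq2 called 5 higher and 4 lower. At an unadjusted edgeR p under 0.05, 6 were higher (csf1ra, gch2, mitfa, msx3, tfap2c and xdh) and 5 lower. mitfa, the master factor of black pigment cells, had 0.350, 3.54 and 13.5 CPM in tumors and 0.0966 and 0.181 CPM in the pools, but did not pass (log2 fold change 5.02, edgeR adjusted p = 0.0150), and the crest factor foxd3 had no count in any sample.

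Genes of proteins that bind Pax factors were the one list of this kind with a median well above 0 (the marker lists of oligodendrocyte precursors and microglia, above, also had higher genes): 4 of 7 tested were higher and none lower by edgeR, by DESeq2 or at an unadjusted p under 0.05, with a median of 1.83. paxip1, whose product links Pax proteins to a histone methyltransferase complex, had 113 to 151 CPM in tumors and 27.6 and 28.1 CPM in the pools (log2 fold change 2.27, SE 0.12, edgeR adjusted p = 3.13e-08). pagr1, the partner of paxip1, was higher by 1.91 and daxx, which binds Pax3 and Pax5 in mammals, by 1.95 on the log2 scale. The genes tle3a (-0.07), tle3b (0.26) and nr2f1a (-0.08) were not called. Of 11 listed genes only 7 were found by symbol, and tle1 and the tle2 genes were missing.

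Of 5 further Pax genes in the table, pax10, a relative of pax6 without a paired domain, was the one that passed the filter. It had 0.0964, 0.203 and 0.458 CPM in tumors and 0.579 and 0.634 CPM in the pools and was not called (log2 fold change -1.42, SE 0.47, edgeR adjusted p = 0.0177). pax1a, pax1b, pax4 and pax9 had too few reads to be tested, with 11, 1, 32 and 52 counts in all tumors together and 2, 3, 2 and 11 in the pools.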

How the data were processed

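RNA-Seq counts of 24 libraries (12 RNA samples) were analysed. The authors deposited raw read counts per Ensembl gene, not normalized. Per the labels GSNAP, HTSeq and the build GRCz10 were used; the study's methods describe uniquely mapped single-end reads. Whether strand was used in counting is not given in the sources used here, so overlapping and antisense genes are uncertain. The authors computed FPKM from counts, exonic length and library totals; recomputing them gave a largest relative difference of 3.5e-07. The exonic lengths in base pairs, a further deposited column of another kind of unit, served only for that. A deposited table of the authors' own DESeq2 comparison (fold changes and p-values) was not used.

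Libraries a and b of one label were summed. Groups were compared with edgeR 4.0.16 (R 4.3.3) by quasi-likelihood, with TMM, filterByExpr and Benjamini-Hochberg adjustment over 20957 genes, without covariates, and the thresholds are those of the study (0.01 and 1.5-fold). The SE given beside a fold change was derived from this test, as the absolute log2 fold change divided by the square root of the F statistic. A check on simulated data with 20404 genes recovered 100% of changes of 3 and 4% of changes of 1 on the log2 scale (50 genes per direction), with 1 false call. All genes had the same spread in that check and few were changed, so these shares do not carry over to the tumors. Exact permutation tests compared copy ratios (pseudocount 0.5), and 100000 permutations gave p-values of correlations. Alternatives were DESeq2 1.42.0, other scalings and filters, limma 3.58.1 on log2(FPKM + 1) and log2(FPKM + 0.1), single libraries, control libraries summed by letter, a replicate block, an adjusted p of 0.05 and leaving out each sample. Floors cover counting error only. The members and gene lists were chosen with earlier results of these data known. Genes named are the 10 members, detected further Pax genes, up to 3 called genes of each list and direction with the largest changes, genes of the correlations, those of most similar pattern, and rb1. Exceptions are tg, tshr, cd79a, cd79b, ebf1a, ebf1b, eng1b, irx7, fgf8b, lbx1a, six3a, six6b, mitfa, foxd3, eya3, tbr1a, tfap2b, msx3, tfap2c, xdh, tle3a, tle3b, nr2f1a and the further Pax genes that were not tested. These were named after their values were seen. No sequences were used here.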

Additional observations from a re-analysis of the deposited data

Results flagged for a closer look

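Levels of the 10 members, the 4 copy ratios and the summed FPKM of the members were examined in the tumors for a single tumor far from the other 9, 15 groups in all, and 2 stood out. Chance alone marks about 1 group in 20. The level of pax2b in tumor 4 was 0.875 CPM, and the next highest tumor was tumor 3 at 0.409 CPM. The level of pax8 in tumor 4 was 0.568 CPM, and the next highest was tumor 6 at 0.331 CPM. Both rest on few reads (20 and 13 counts), and tumor 4 also had the highest levels of pax2a, pax6a and pax6b, which did not stand apart in the same way.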

How the results depend on the processing

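Over all tested genes, leaving out 1 sample gave 2904 to 5046 higher and 3576 to 5391 lower genes, against 4779 and 5220. Of the Pax genes, 1 was called higher (pax3a) under DESeq2, with the replicate block and at an adjusted p of 0.05 without a fold threshold, and 0 to 1 when 1 sample was left out. The number called lower was 5 when at least 10 counts were asked of every sample, because fewer genes were tested, 4 with the replicate block and 7 to 8 when 1 sample was left out. Tumor and control numbers pair no animals, since each tumor is 1 fish and each control a pool of 3 brains. Correlations of deviations across genes lay between -0.021 and 0.021 over the 4 pairings of tumors 1 and 2 with the pools. With 2 pools the deviations mirror each other, so that check alone cannot decide on a pairing. Only numbers 1 and 2 occur in both groups. The tumor effect under the replicate block, the pax3a call included, therefore rests on tumors 1 and 2 against the 2 pools. Tumor 1 had the highest pax3a level of all tumors. In that fit pax2b, pax5, pax6b and pax8 had edgeR adjusted p of 0.0182, 0.0140, 0.0111 and 0.0405 and were not called. pax8 also missed the threshold without a filter (adjusted p = 0.0122) and the fold threshold on log2(FPKM + 1) (change -0.31). Of the genes in the context lists, 6 were higher and 58 lower; at an adjusted p of 0.05 without a fold threshold 11 were higher, with at least 10 counts in every sample 37 were lower, and leaving out 1 sample gave 4 to 8 and 39 to 59. The copy ratio of pax2 changed sign with a pseudocount of 1 (-0.0152) and ranged from -0.23 to 0.38 when 1 sample was left out, and that of pax7 from -0.0051 to 0.11, all within the spread of the tumors. The correlation of pax3a and pax3b ranged from -0.308 to 0.301 when 1 tumor was left out. The median of all genes moved between -0.05 and 0.16 on the log2 scale over the settings, far less than the changes of the called Pax genes. Changes of 1 on the log2 scale were rarely recovered in the simulated data. There all genes had the same spread, few were changed, and those had higher counts than pax3b and pax10. In the tumors, smaller changes were called, such as tek (-0.587) and pecam1 (0.913). The simulated recovery therefore does not carry over to pax3b and pax10, and what the test can miss in them was not tested.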
